A study of Mus musculus with 38 samples.

Results

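Immediate early genes are switched on within minutes of a signal, without new protein synthesis, and are switched off again soon after. Growth factor and mitogen-activated kinase signals reach them through serum response factor at CArG boxes, cyclic AMP and stress signals through CREB and ATF factors, and inflammatory signals through NF-kB. Their products are largely transcription factors of the AP-1, EGR and NR4A families, together with the phosphatases and other inhibitors that end the signal. Their short-lived RNAs make them quick reporters of handling and signalling in cultured cells. The gene set described here holds 44 named genes of this kind, listed by name, with earlier results of these data known: AP-1 and small Maf factors, EGR, NR4A and other induced transcription factors, feedback regulators, NF-kB inhibitors, secreted and effector proteins, and redox or glucose responsive genes. Of the 44, 36 had counts in at least 1 library, out of 22408 genes with counts among 55385 genes in the table. The 36 passed the filter on low counts in every fit.

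The study treated mouse embryonic stem cells of the strain 129S6/SvEvTac with BRM014, an inhibitor of the ATPases of the SWI/SNF (BAF) chromatin remodelling complexes, and sequenced their RNA. In the first experimental batch, wild-type (WT) cells received 10 uM BRM014 and were collected at 30 min, 1 h, 3 h, 6 h and 24 h. Others received DMSO, the solvent, or 10 uM of an analog labelled inactive, and were collected at 1 h and 24 h. Washout samples were taken 30 min and 1 h after removing a 1 h treatment, and 6 h and 24 h after removing a 24 h treatment; their labels give no dose. In the second batch, WT cells and 2 lines with the genotype labels Ino80ko and Snf2hko, which name remodellers of other families, received DMSO or BRM014 for 24 h. Every group had 2 libraries in a batch, labelled biological replicates without further detail, so p-values measure the spread between these libraries, which may be in part technical. All cells grew on gelatin in serum with LIF, a cytokine that holds stem cells undifferentiated, and each knockout label covers 1 line. There was no vehicle sample at 30 min, 3 h or 6 h and no vehicle sample that was washed. The medium change of a washout and the removal of the drug therefore cannot be told apart. No BRM014 or DMSO sample matched a washout in time since the start of treatment, so that time cannot be told apart from removal either.

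The libraries held 19349695 to 23053021 counts in the first batch and 21948010 to 44453556 in the second. The 8 embryonic stem cell markers summed to between 4592 and 6927 CPM (counts scaled to a common library size) in every library, and the fibroblast markers Col1a2 and Col3a1 were at 0 in all of them. Smarca4, an ATPase that BRM014 inhibits, and Smarca5, which encodes Snf2h, were at 0 in all 38 libraries, so neither could be read. In the second batch with DMSO, Ino80 stood at 128 and 122 CPM in the line labelled Ino80ko, at 174 and 175 CPM in WT and at 130 and 125 CPM in Snf2hko. A gene count does not show a deleted exon, and the table therefore cannot check either knockout label.

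Among the members, 8 had 0 counts in every library: Jun, Jund, Ier2, Ier5 and Zfp36, which are single-exon genes in the GENCODE annotation, and Srf, Csrnp1 and Dusp1, which share sequence span with another gene on the same strand. Zero counts were general for such genes. Of 1435 single-exon protein-coding genes 99.2% were at 0, as were 99.1% of 4227 genes with a same-strand overlap, against 6.75% of the other 16235. The zeros of these 8 members therefore hold no information on their expression. Jun and Jund, the partners of Fos in AP-1, and the phosphatase Dusp1 are missing from all that follows. Junb, the other Jun protein, was called in none of the 29 comparisons, and its libraries of 1 group lay as far apart as 56.1 and 23.9 CPM; it overlaps Prdx2 on the opposite strand.

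Promoters were read for members whose sequence classes are the textbook inputs listed above, from the RefSeq promoter table (build GRCm38.p6), which holds 250 bases before and 50 bases after each start; 32 of the 44 members matched. Capitals mark the matches on either strand, and each sequence runs 5′ to 3′ on the gene's strand. The first group holds kB sites (the NF-kB consensus), in 2 NF-kB inhibitors and Irf1, shown as examples of members that fell in comparisons below; Nfkbid also holds a full cyclic AMP response element, TGACGTCA.
Nfkbid: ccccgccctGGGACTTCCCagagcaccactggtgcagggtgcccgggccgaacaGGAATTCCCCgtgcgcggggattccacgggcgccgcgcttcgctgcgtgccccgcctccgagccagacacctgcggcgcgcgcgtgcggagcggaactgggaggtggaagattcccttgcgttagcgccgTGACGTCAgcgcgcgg
Nfkbia: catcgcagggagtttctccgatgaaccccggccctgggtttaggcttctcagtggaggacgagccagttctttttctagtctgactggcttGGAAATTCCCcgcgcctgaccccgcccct
Irf1: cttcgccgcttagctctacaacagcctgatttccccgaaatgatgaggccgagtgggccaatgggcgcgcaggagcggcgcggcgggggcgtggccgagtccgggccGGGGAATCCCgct
These windows lie at chr7:30422171-30422370 (plus strand), chr12:55492648-55492767 (minus strand) and chr11:53769894-53770013 (plus strand). The second group shows CArG boxes, the serum response factor site, in Dusp5 (2 adjoining boxes) and Egr2, and an AP-1 site, TGANTCA, in Plaur.
Dusp5: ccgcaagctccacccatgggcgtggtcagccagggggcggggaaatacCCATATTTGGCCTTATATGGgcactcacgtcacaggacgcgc
Egr2: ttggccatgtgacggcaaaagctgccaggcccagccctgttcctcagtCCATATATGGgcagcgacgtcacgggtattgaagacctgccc
Plaur: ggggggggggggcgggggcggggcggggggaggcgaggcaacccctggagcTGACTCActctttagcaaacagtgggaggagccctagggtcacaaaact
They lie at chr19:53529015-53529104, chr10:67537749-67537838 and chr7:24462363-24462462, all on the plus strand. A kB site was found in promoters of 10 of the 32 matched members (31.2%), against 5.14% of the 27025 genes in the table. The other 7 were Bdnf, Fos, Fosb, Fosl2, Ier3, Maff and Nr4a1, and of these Fosl2 (1.03), Fos (0.97), Bdnf (0.80) and Maff (0.59) rose on the log2 scale after 24 h of BRM014 in WT, so a kB site did not go with 1 direction. CArG boxes were in 4 members (12.5%; Dusp5, Egr2, Srf and Zfp36) against 1.81% of genes. TGACGTCA was in 3 members (9.38%) against 2.03%, and the EGR site GCGTGGGCG in 1 member, Maff, against 0.707%. TGANTCA was in 3 members (9.38%), close to the 8.97% of all genes. A gene can have several promoter entries, and a match is a description of letters, not of binding.

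In cells given DMSO alone the members spanned a wide range. Per kilobase of exon, in the DMSO 1 h libraries, the arrestin-domain gene Txnip had 101 CPM, the kinase gene Pim1 64.5, Myc 56.9, the haem-degrading enzyme gene Hmox1 53.1, the poly-ADP-ribosyltransferase gene Tiparp 36.9 and the arrestin-domain gene Arrdc3 32.6. Fos itself stood at 1.5, Egr1 at 0.903, Nr4a3 at 0.0590 and Egr2 at 0.0262 CPM per kilobase. These classical first responders were thus among the rarest RNAs of the set. Egr2 and Egr3 rested on at most 74 and 100 counts in any library, and fold changes of both are imprecise.

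**Figure D1:**
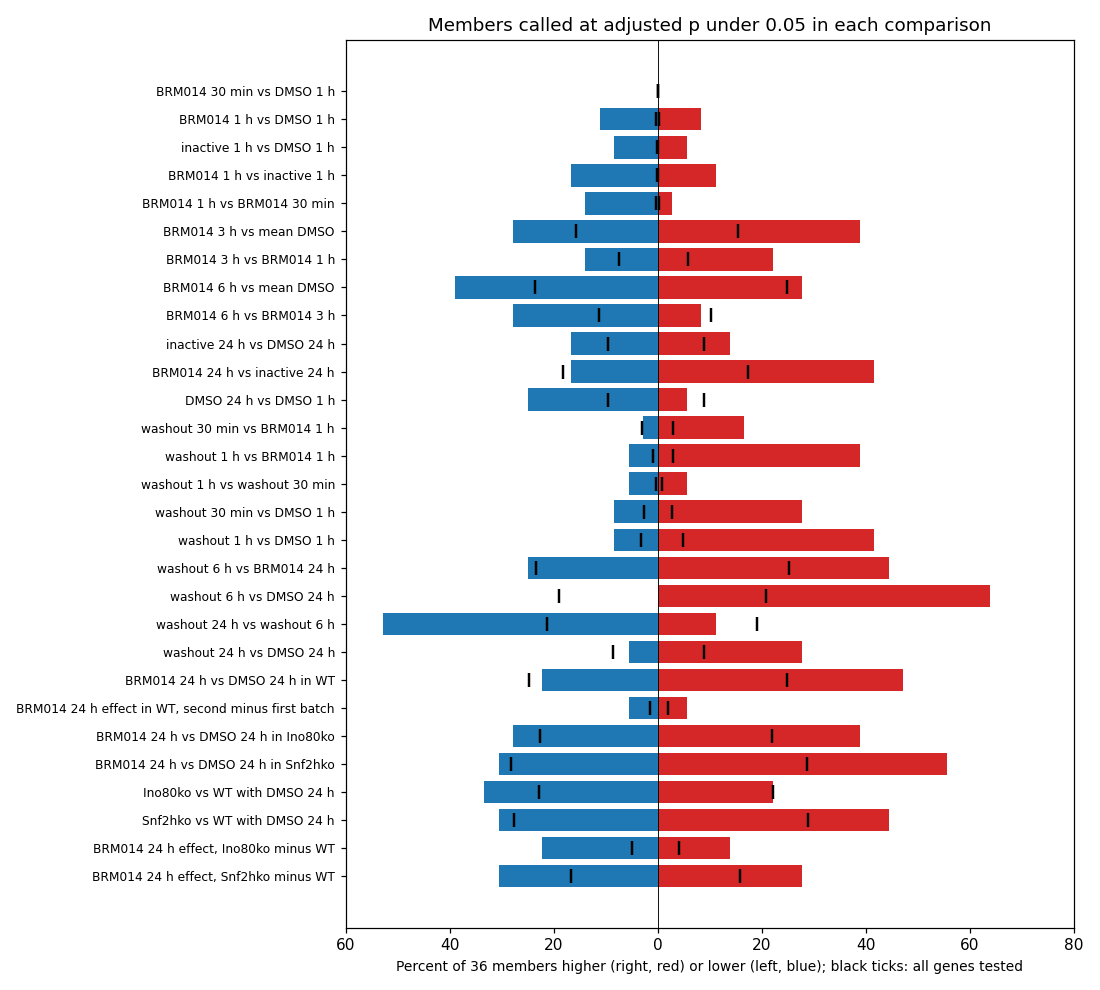
Bars give the percent of the 36 members called higher (red, to the right) or lower (blue, to the left) at an adjusted p under 0.05 in each of the 29 comparisons, and black ticks give the same percentages over all genes tested. The 6 h washout against DMSO 24 h had 23 members higher and 0 lower.

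After 30 min of BRM014, no member passed the test against DMSO 1 h. A gene is called here when its adjusted p from edgeR's quasi-likelihood test, taken over all genes tested, is below 0.05; in this comparison 0% of 12517 genes were called (348 at an unadjusted p under 0.05). By DESeq2, 0 members passed as well. Of the 36 members, 28 had a positive estimate and 6 an unadjusted p under 0.05, all higher; the members' median log2 fold change was 0.08, against 0.00 over all genes. Fos, the AP-1 subunit that defines the class, was at 3.50 and 3.57 CPM with DMSO and at 6.22 and 6.09 CPM after 30 min (log2 fold change 0.80, 95% interval 0.44 to 1.15, adjusted p = 0.585). Egr1 had an estimate of 0.76 (0.24 to 1.28, adjusted p = 0.9997). Atf3, a stress-induced member of the ATF family, had 0.38 (0.19 to 0.56, adjusted p = 0.836). The groups did not overlap for Fos, yet none of these values passed. Fitted with the compared groups alone, 4 members were called, all higher, and 10 were, all higher, when both DMSO times served as the reference. That reference takes in DMSO 24 h, where 9 members were called lower and 2 higher than at DMSO 1 h. The 10 calls therefore cannot be read as an effect of the drug at 30 min.

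At 1 h of BRM014, 3 members were higher and 4 lower than with DMSO 1 h (7 of 36, where 0.599% of all genes were called). The kinase-like adaptor gene Trib1, whose protein directs transcription factors to degradation, was at 19.4 and 20.1 CPM with DMSO and fell to 10.1 and 11.6 CPM (log2 fold change -0.87 ± 0.12 SE, adjusted p = 1.674e-04). Adamts1, a secreted protease, rose from 24.8 and 22.7 CPM to 37.5 and 34.4 CPM (0.59 ± 0.09, adjusted p = 3.795e-04). Neither gene overlapped between the groups, and both calls held when any 1 library was left out. Nfkbid, an atypical inhibitor of NF-kB, fell from 10.9 and 13.1 CPM to 5.39 and 5.95 CPM (-1.08 ± 0.17, adjusted p = 7.551e-04). Its adjusted p was 0.0607 without DMSO 1 h replicate 2. Atf3 rose from 25.7 and 26.2 CPM to 37.2 and 37.4 CPM (0.52, adjusted p = 0.00261), and Fos to 6.67 and 5.83 CPM (0.81, adjusted p = 0.0176). Hbegf, a growth factor of the EGF family, fell by 0.39 and Irf1, an interferon response factor, by 0.49 on the log2 scale. These 4 calls did not hold when single libraries were left out: without DMSO 1 h replicate 1, replicate 2 or BRM014 1 h replicate 2, the count of members called was 3, 2 and 3. In bulk RNA, fewer cells that express a gene and less RNA per cell cannot be told apart.

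Between 30 min and 1 h of BRM014, 1 member rose and 5 fell (0.503% of all genes called). Trib1 fell by 0.82 (adjusted p = 2.536e-04), Hbegf by 0.51 (adjusted p = 1.600e-04) and Txnip by 0.47 (adjusted p = 2.536e-04), and these calls held without any single library. Txnip, which restrains glucose uptake, went from 366 and 369 CPM to 254 and 278 CPM. Adamts1 rose by 0.58, and Irf1 and Nfkbid fell by 0.52 and 0.86; without BRM014 30 min replicate 2 these calls were lost and the count was 3, and the call of Nfkbid was lost without any 1 of the 4 libraries.

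The inactive analog also moved members at 1 h: 2 were higher and 3 lower than with DMSO 1 h (0.184% of all genes called). Arrdc3 fell from 207 and 202 CPM to 141 and 150 CPM (-0.50 ± 0.06, adjusted p = 9.704e-05) and Txnip from 316 and 316 CPM to 223 and 209 CPM (-0.56 ± 0.07, adjusted p = 1.086e-04). Both encode arrestin-domain proteins, and both calls held without any single library. Arc, known as a neuronal activity gene, rose from 48.5 and 50.03 CPM to 71.7 and 72.0 CPM (0.54, adjusted p = 0.00208). Fos rose to 5.57 and 7.16 CPM (0.84, adjusted p = 0.0414) and Nfkbid fell to 7.50 and 6.4 CPM (-0.79, adjusted p = 0.0423). Fos and Nfkbid thus moved with the analog in the direction they moved with BRM014, against the same DMSO libraries. Without DMSO 1 h replicate 1 or 2, or inactive 1 h replicate 1, 2 members were called, Arrdc3 and Txnip; without inactive 1 h replicate 2 there were 3.

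Set directly against each other at 1 h and the same dose, BRM014 and the analog differed in 10 members, 4 higher and 6 lower with BRM014, where 20 of 12517 genes (0.16%) were called in all. The list of names was drawn up with these called genes known, so the share is no independent result. Arc was lower with BRM014 (51.5 and 47.7 CPM against 71.7 and 72.0; log2 fold change -0.53 ± 0.08, adjusted p = 0.00163), and Irf1 by -0.59 (adjusted p = 0.00898). Lower as well were Nr4a1 (-0.45), an orphan nuclear receptor, Trib1 (-0.63), Plaur (-0.40), the urokinase receptor, and Hmox1 (-0.35). Higher with BRM014 were Bdnf (0.75), a neurotrophin, Adamts1 (0.42), Arrdc3 (0.32) and Pim1 (0.27). None of the 10 calls held without BRM014 1 h replicate 2 or without inactive 1 h replicate 1, and 5 held without BRM014 1 h replicate 1 or inactive 1 h replicate 2. For members that did not pass, the intervals bound the difference between the compounds: Fos differed by -0.03 (95% interval -0.35 to 0.30) and Atf3 by 0.40 (0.22 to 0.59; adjusted p = 0.0694).

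**Figure D2:**
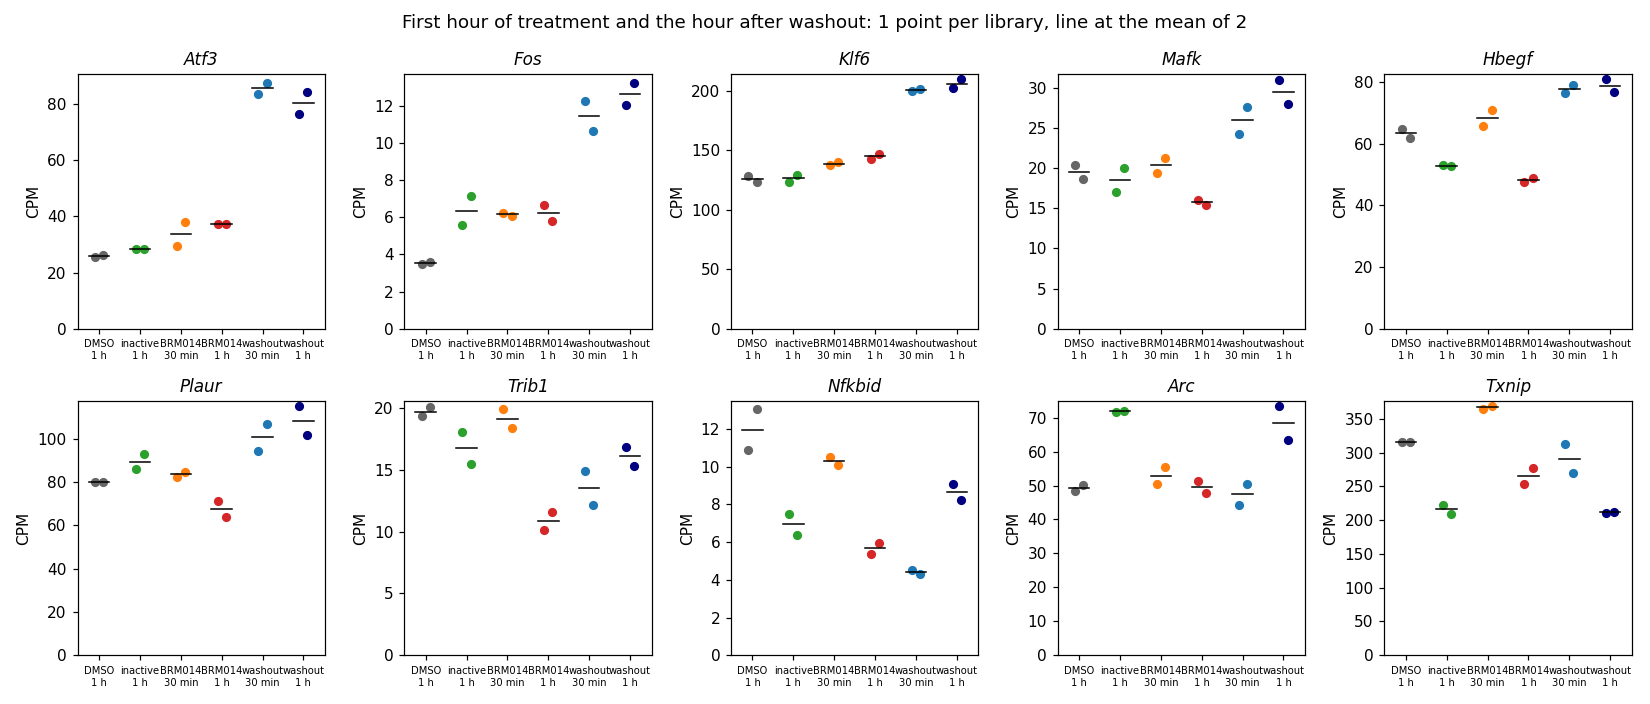
Each panel shows 1 member in CPM, with 1 point per library and a line at the mean of 2, for DMSO 1 h, the inactive analog 1 h, BRM014 30 min and 1 h, and the washouts 30 min and 1 h after a 1 h treatment. Atf3 lies between 76.4 and 87.5 CPM in the 4 washout libraries and at or below 37.8 CPM in the others shown. With BRM014 left on for 3 h, not shown here, it was at 76.4 and 79.3 CPM.

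The largest early changes were in the short washout samples. These were collected later after the start of treatment than the 1 h samples they are set against. At 30 min of washout, 6 members were higher and 1 lower than at the end of the 1 h treatment (5.9% of all genes called). Of the 8 AP-1 and small Maf genes tested, 3 rose: Atf3 went from 37.2 and 37.4 CPM to 83.6 and 87.5 CPM (1.18 ± 0.09, adjusted p = 8.439e-10), Fos from 6.67 and 5.83 CPM to 12.3 and 10.7 CPM (0.86 ± 0.15, adjusted p = 6.065e-04), and Mafk, a small Maf protein, from 16.1 and 15.4 CPM to 24.3 and 27.7 CPM (0.71 ± 0.10, adjusted p = 4.012e-05). The zinc finger gene Klf6 rose by 0.45, and 2 of the 5 secreted, surface and effector genes rose, Hbegf by 0.67 and Plaur by 0.55. The washout libraries lay above the treated ones for each of these 6 genes, and the calls held without any single library. Myc fell by 0.44 (adjusted p = 0.00938; 0.111 without BRM014 1 h replicate 2 and 0.228 without washout 30 min replicate 2).

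At 1 h of washout, 14 members were higher and 2 lower than at the end of treatment (3.98% of all genes called), with a median log2 fold change of 0.36 over the members and -0.01 over all genes. Of the 8 AP-1 and small Maf genes tested, 6 rose, among them Fosb (1.21), Atf3 (1.10), Fos (1.01), Mafk (0.90) and Maff (0.80). Trib1, which the drug had lowered, rose by 0.57, from 10.1 and 11.6 CPM to 16.9 and 15.4 CPM. Arc rose by 0.46 and Hmox1 by 0.39, and Hbegf and Plaur stayed up at 0.70 and 0.67. Txnip fell by 0.33 to 211 and 212 CPM, and Myc by 0.39. Without BRM014 1 h replicate 2, 10 members were called, all higher; Maff (adjusted p = 0.0715) and Txnip (0.112) were among those lost. Bach1, a repressor that pairs with small Maf proteins, was the single gene called of the 29 upstream pathway genes tested (0.50, adjusted p = 8.226e-06).

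From 30 min to 1 h of washout, 4 members changed (1.13% of all genes called). Arc rose by 0.54, from 44.4 and 50.6 CPM to 73.5 and 63.4 CPM (adjusted p = 8.010e-04), and Txnip fell by 0.45 (adjusted p = 0.00122). Nfkbid rose by 0.98 from 4.51 and 4.33 CPM to 9.07 and 8.21 CPM, and Pim1 fell by 0.25. Without washout 30 min replicate 2 or washout 1 h replicate 2 only Arc and Txnip were called. The 30 min washout libraries of Nfkbid were the lowest among the groups up to 1 h, although their difference from 1 h of BRM014 was not called.

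Against DMSO 1 h, 10 members were higher and 3 lower at 30 min of washout (5.36% of all genes called), and 15 higher and 3 lower at 1 h (8.1%). Atf3 stood 1.70 ± 0.09 and 1.62 ± 0.09 above DMSO on the log2 scale at the earlier and the later time, Fos 1.67 ± 0.16 and 1.83 ± 0.16, and Klf6 0.65 ± 0.06 and 0.70 ± 0.06, with adjusted p between 1.948e-13 and 1.690e-07. Klf6 was at 128 and 123 CPM with DMSO and at 200 to 210 CPM in the 4 washout libraries. Fosb, at 0.415 and 0.430 CPM with DMSO, reached 1.64 and 1.70 and then 2.15 and 2.97 CPM (1.94 and 2.57); its earlier call did not hold when either DMSO 1 h library was left out (adjusted p = 0.0666 for replicate 1 and 0.0722 for replicate 2), and DESeq2 gave it no adjusted p. Irf1 stayed below DMSO at both times (-0.53 and -0.66), Nfkbid at the first (-1.46), and Txnip at the second (-0.59). The count at 30 min was 7 without DMSO 1 h replicate 1, 5 without DMSO 1 h replicate 2, 7 without washout 30 min replicate 2 and 5 with only the compared groups fitted; Atf3, Klf6, Fos and Nfkbid held in each of these. The primitive endoderm markers, of which 5 of 6 had counts and Pdgfra was at 0, summed to 223 to 234 CPM with DMSO 1 h, 204 to 209 at 1 h of BRM014, 274 to 289 at 30 min and 314 to 337 CPM at 1 h of washout. Their part in the washout results was not tested.

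**Figure D3:**
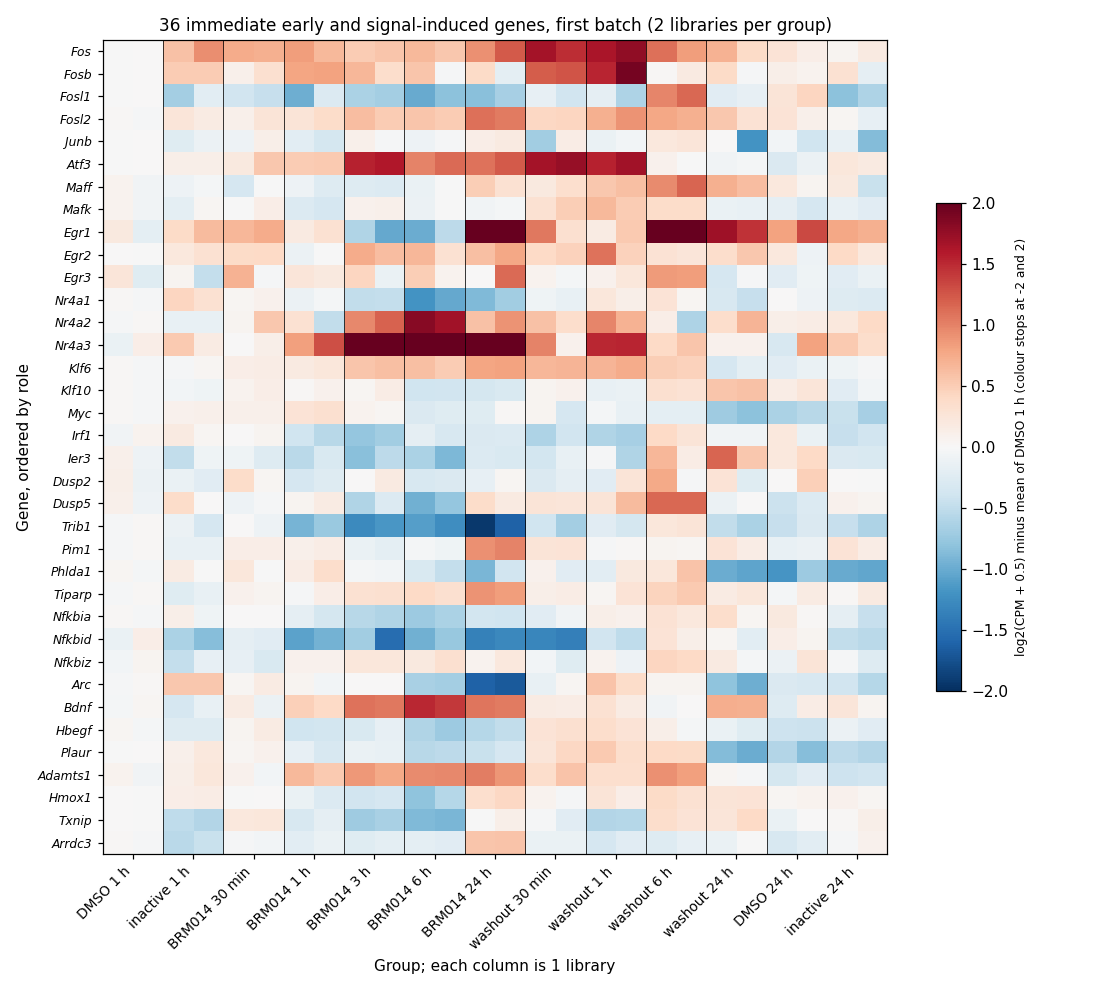
Each column is 1 library of the first batch and each row 1 member, ordered by role; colour is log2(CPM + 0.5) minus the mean of the DMSO 1 h libraries, and it stops at -2 and 2. Atf3 is high in BRM014 from 3 h and in both short washouts, and Trib1 and Nfkbid are low in BRM014 from 1 h; the 24 h groups are shown against the 1 h DMSO here, while their tests use DMSO 24 h.

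With BRM014 left on for 3 h, 14 members were higher and 10 lower than the mean of the DMSO groups (31.2% of all genes called), and at 6 h 10 were higher and 14 lower (48.4%). Atf3 peaked at 76.4 and 79.3 CPM at 3 h (1.69 ± 0.07, adjusted p = 7.987e-16) and came down to 52.2 and 57.2 CPM at 6 h (1.20 ± 0.08). Nr4a3, an orphan nuclear receptor, went from 0.277 and 0.430 CPM with DMSO 1 h to 5.61 and 4.92 CPM at 3 h and 5.62 and 5.88 CPM at 6 h (3.54 ± 0.31 and 3.69 ± 0.30). Its relative Nr4a2 rose by 1.38 and 2.19, while Nr4a1 fell by 0.47 and 1.08: the 3 genes of the NR4A family parted. Bdnf rose by 1.18 and 1.61, and Adamts1 by 0.97 and 1.13. Egr1, the immediate early zinc finger factor, fell to 2.47 and 1.71 CPM and then 1.76 and 2.64 CPM (-1.53 ± 0.26 and -1.44 ± 0.25), although it also differed between the DMSO times (4.66 and 3.44 CPM at 1 h, 7.39 and 10.7 CPM at 24 h). Trib1 was lower by -1.06 and -1.0 and Nfkbid by -1.18 and -0.94. Of the 3 NF-kB inhibitors, Nfkbia and Nfkbid fell at both times (Nfkbia -0.65 and -0.74), and Nfkbiz was not called (0.20 at 3 h, adjusted p = 0.266). Ier3 fell by 0.89 at 3 h (adjusted p = 0.0598 without BRM014 3 h replicate 1) and by 0.97 at 6 h.

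In the step from 1 h to 3 h, 8 members rose and 5 fell (13.3% of all genes called), and from 3 h to 6 h 3 rose and 10 fell (21.6%). Atf3 (1.07, adjusted p = 9.624e-10), Nr4a3 (2.02) and Bdnf (0.67) made the first step, and Pim1 (-0.29), Nr4a1 (-0.40) and Txnip (-0.43) fell in it. In the second step Arc fell by 0.66, from 49.3 and 49.6 CPM to 31.1 and 30.5 CPM (adjusted p = 1.891e-06), Nr4a1 by 0.62, Atf3 by 0.49 and Klf10, a TGF-beta induced factor, by 0.46, and Irf1 recovered by 0.52. Calls of Nr4a2, Mafk, Egr1 and Dusp5 in the first step, and of Nr4a2, Bdnf and Dusp5 in the second, were lost when single libraries were left out. The first count was 8 without BRM014 1 h replicate 2, and the second was 8 without BRM014 3 h replicate 2 or BRM014 6 h replicate 2 and 7 without BRM014 6 h replicate 1.

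None of the 29 upstream pathway genes tested (kinases, CREB, NF-kB and SRF partner genes, from 44 names) was called by edgeR in the 5 comparisons up to 1 h. Few genes of any kind were called in those comparisons. At an unadjusted p under 0.05, 2 were higher at 30 min, and 3 were higher and 1 lower at 1 h of BRM014. At 3 h 6 were called higher and 4 lower (34.5% of the 29), and at 6 h 9 higher and 6 lower (51.7%). Both shares lay near those of all genes given above for the same comparisons. Elk3, an SRF partner of the ternary complex family that represses transcription, fell by 0.79 at 3 h and 1.54 at 6 h (adjusted p = 4.594e-06 and 3.535e-11). Rela, the main activating NF-kB subunit, rose by 0.56 and 0.70. Elk3 was also lower after 24 h of BRM014 in WT, by -1.88 ± 0.13 (adjusted p = 7.477e-09).

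After 24 h in WT, over both batches, 17 members were higher and 8 lower with BRM014 than with DMSO (49.6% of all genes called), with a median log2 fold change of 0.29 over the members and 0.00 over all genes. Nr4a3 rose by 3.52 ± 0.37 (adjusted p = 2.897e-06). Atf3 was at 21.2, 24, 19.7 and 20.1 CPM with DMSO and at 55.8, 61.6, 81 and 85.5 CPM with BRM014 (1.74 ± 0.12, adjusted p = 6.795e-08). Fosl2, an AP-1 subunit, rose by 1.03, Adamts1 by 0.99 and Fos by 0.97. Trib1 fell from between 14.14 and 15.98 CPM with DMSO to between 3.99 and 6.09 CPM (-1.66 ± 0.12, adjusted p = 1.232e-08), Nfkbid by 1.52, Arc by 1.17, Nr4a1 by 0.80 and Klf10 by 0.53. No library of one group reached the other for these genes. All 10 calls held without any single library and in each batch alone.

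Each batch had its own DMSO libraries. Fitted apart, 26 members were called in the first (45.8% of all genes) and 23 in the second (42.3%). Of these, 20 were called in both (76.9% and 87.0% of them), and all 20 in the same direction: 14 higher and 6 lower. Over the 12368 genes tested in both fits, 3836 were called in both (67.3% and 70% of those called in each), 98.5% of them in the same direction. The size of the effect differed between batches for 4 members (3.46% of all genes called): Atf3 (0.70 ± 0.14 larger in the second batch, adjusted p = 0.00722), Hbegf (0.54), Pim1 (-0.55) and Myc (-0.70). The count ranged from 1 without BRM014 24 h replicate 2 to 9 without DMSO 24 h replicate 2, with 2 without BRM014 24 h replicate 1, and Hbegf was lost in 6 of the 8 such fits.

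The inactive analog at 24 h gave 5 members higher and 6 lower than DMSO 24 h (18.4% of all genes called). Pim1 rose by 0.34 (adjusted p = 9.153e-05), from 196 and 201 CPM to 261 and 240 CPM, and Atf3 by 0.40; Klf10 fell by 0.33 (adjusted p = 1.829e-04). With only the compared groups fitted 6 members were called and Atf3 was lost (adjusted p = 0.0530), and without inactive 24 h replicate 2 there were 7. Dusp5, Hbegf, Ier3, Nfkbid, Irf1 and Nfkbia each lost their call without at least 1 library. BRM014 against the analog at 24 h and the same dose differed in 21 members, 15 higher and 6 lower (35.4%). Nr4a3 was higher by 2.69 ± 0.37, Egr1 by 1.71 ± 0.21, Adamts1 by 1.38 ± 0.09, Fosl2 by 1.18 and Fos by 1.05. Trib1 was lower by 1.30 ± 0.14, Arc by 1.20 ± 0.10, Nfkbid by 0.87, Nr4a1 by 0.54 and Hbegf by 0.37. Each of these 10 calls held without any single library. The same 2 compounds were compared in 36 members at each of 2 times, with p adjusted over all genes in each.

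The DMSO groups themselves differed between 1 h and 24 h in 11 members, 2 higher and 9 lower at 24 h (18.5% of all genes called). Egr1 was higher by 1.15 ± 0.24, and lower were Phlda1, a growth factor induced cytoplasmic regulator (-1.04), Plaur (-0.73), Myc (-0.60) and Hbegf (-0.44). Leaving out DMSO 1 h replicate 1 gave 7 members and replicate 2 gave 6, and fitting only these groups gave 5; the calls of Klf10 (0.18) and Trib1 (-0.40) were among those lost.

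**Figure D4:**
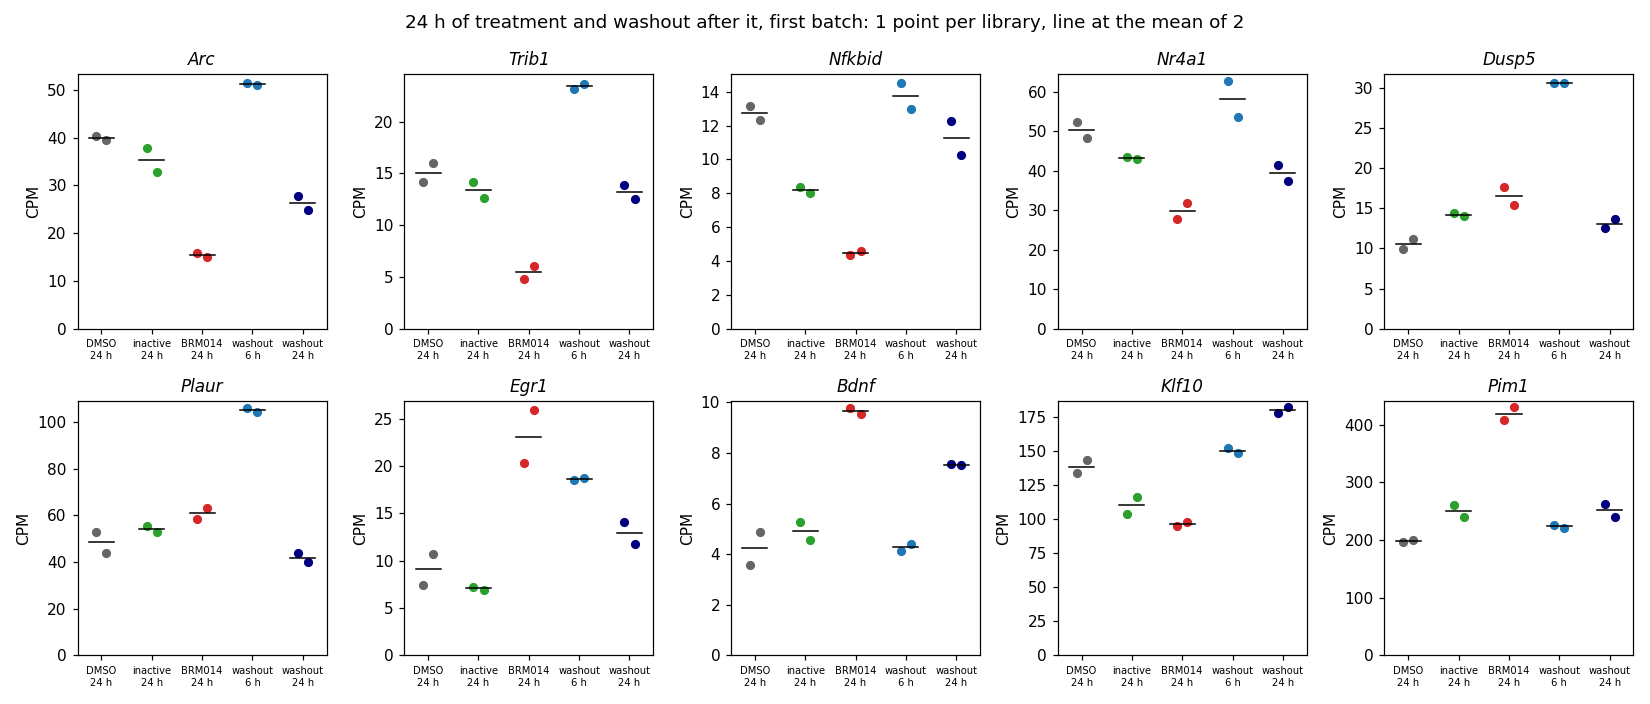
Each panel shows 1 member in CPM, with 1 point per library and a line at the mean of 2, for DMSO, the inactive analog and BRM014 at 24 h in the first batch and the washouts 6 h and 24 h after 24 h of BRM014. Plaur lies at 106 and 104 CPM at 6 h of washout and between 39.9 and 63.3 CPM in the other groups shown.

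Within 6 h of washing out a 24 h treatment, 16 members rose and 9 fell against the end of treatment (48.7% of all genes called). Trib1 rose by 2.10 ± 0.14, from 4.83 and 6.09 CPM to 23.2 and 23.6 CPM, Arc by 1.74 ± 0.09, Nfkbid by 1.62, Phlda1 by 1.11 and Nr4a1 by 0.97. Nr4a3 fell by 2.63, Bdnf by 1.17, Atf3 by 1.13 and Pim1 by 0.90, and Nr4a2 by 1.36 (adjusted p = 0.0607 without BRM014 24 h replicate 2 and 0.113 without washout 6 h replicate 2).

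At 6 h of washout most members lay above DMSO 24 h: 23 were higher and 0 lower, where 39.8% of all genes were called, 2605 higher and 2378 lower. At an unadjusted p under 0.05, 24 were higher and 0 lower, and DESeq2 called 20 higher and 0 lower. The members' median was 0.39, against 0.02 over all genes, and 35 of 36 estimates were positive. Dusp5, a nuclear phosphatase that shuts off ERK, was at 9.88 and 11.1 CPM with DMSO and at 30.6 and 30.5 CPM (1.55 ± 0.13, adjusted p = 3.431e-10). Phlda1 was higher by 1.46 ± 0.20, at 8.94 and 11.5 CPM against 3.08 and 4.41 CPM. Adamts1 was higher by 1.17 ± 0.09, and Plaur by 1.12 ± 0.08, at 106 and 104 CPM against 52.9 and 43.9 CPM. Egr1 was higher by 1.05 ± 0.21, at 18.5 and 18.7 CPM. Calls of these 5 genes held without any single library. At the end of treatment, Adamts1 already averaged 46.2 CPM and Egr1 23.1 CPM, against 43.5 and 18.6 CPM at 6 h of washout. Dusp5, Plaur and Phlda1 then averaged 16.6, 60.9 and 4.74 CPM. Set against DMSO, a level already high with BRM014 is not separated from a rise after its removal. Fosl1, an AP-1 subunit induced by ERK, rose from 1.31 and 1.56 CPM with DMSO to 2.51 and 2.88 CPM (0.91, adjusted p = 0.0217), after 0.349 and 0.457 CPM at the end of treatment. By role, 6 of 8 AP-1 and small Maf genes, 6 of 10 EGR, NR4A and other factors, 5 of 7 feedback regulators, 4 of 5 secreted and effector genes and 2 of 3 redox genes were higher, and 0 of 3 NF-kB inhibitors. Of the 29 upstream genes 5 were higher and 5 lower.

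By 24 h of washout 4 members had risen and 19 fallen from the 6 h level (40.3% of all genes called): Phlda1 by -1.56, Plaur by -1.33, Dusp5 by -1.23, Arc by -0.96 and Adamts1 by -0.87, while Bdnf rose by 0.82. Against DMSO 24 h, 10 were higher and 2 lower (17.4%). The washed cells were collected later after the start of treatment than the DMSO 24 h cells. Culture time and the past treatment therefore cannot be told apart in this comparison. Bdnf was at 7.57 and 7.51 CPM against 3.58 and 4.88 CPM (0.85 ± 0.15, adjusted p = 2.444e-04), and Klf10 (0.38) and Txnip (0.39) were higher. Arc was lower, at 27.9 and 24.8 CPM against 40.4 and 39.5 CPM (-0.60 ± 0.09, adjusted p = 1.755e-05). The count was 7 without washout 24 h replicate 1 and 5 with only the compared groups fitted, and the calls of Ier3, Maff and Nr4a1 were lost in such fits. The 4 markers of 2-cell-like cells, a rare state in these cultures, summed to 40.6 to 42.9 CPM at 6 h and 102 to 107 CPM at 24 h of washout against 11.7 to 12.1 CPM with DMSO 24 h; their part in these results was not tested.

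The knockout lines differed from WT before any drug. With DMSO, 8 members were higher and 12 lower in Ino80ko (45% of all genes called) and 16 higher and 11 lower in Snf2hko (56.5%). In Ino80ko, Hbegf was at 103 and 106 CPM against 37.4 and 37.2 CPM in WT (1.49 ± 0.07, adjusted p = 4.061e-12), and Phlda1 (1.33), Plaur (1.10) and Nr4a1 (1.06) were higher. Adamts1 was at 6.45 and 7.70 CPM against 26.2 and 27.3 CPM (-1.92 ± 0.10), and Bdnf (-1.70) and Atf3 (-1.22) were lower. In Snf2hko, Plaur was at 116 and 127 CPM against 39.2 and 36.9 CPM (1.67 ± 0.07, adjusted p = 7.294e-13), and Atf3 (1.45), Klf6 (1.27) and Fosl2 (1.26) were higher. Egr1 was at 2.46 and 2.63 CPM against 10.4 and 12.3 CPM (-2.17 ± 0.17), and Pim1 (-1.72), Dusp2 (-1.49), Myc (-1.13) and Bdnf (-1.11) were lower. With 1 line per label, the genotype and the line cannot be told apart.

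**Figure D5:**
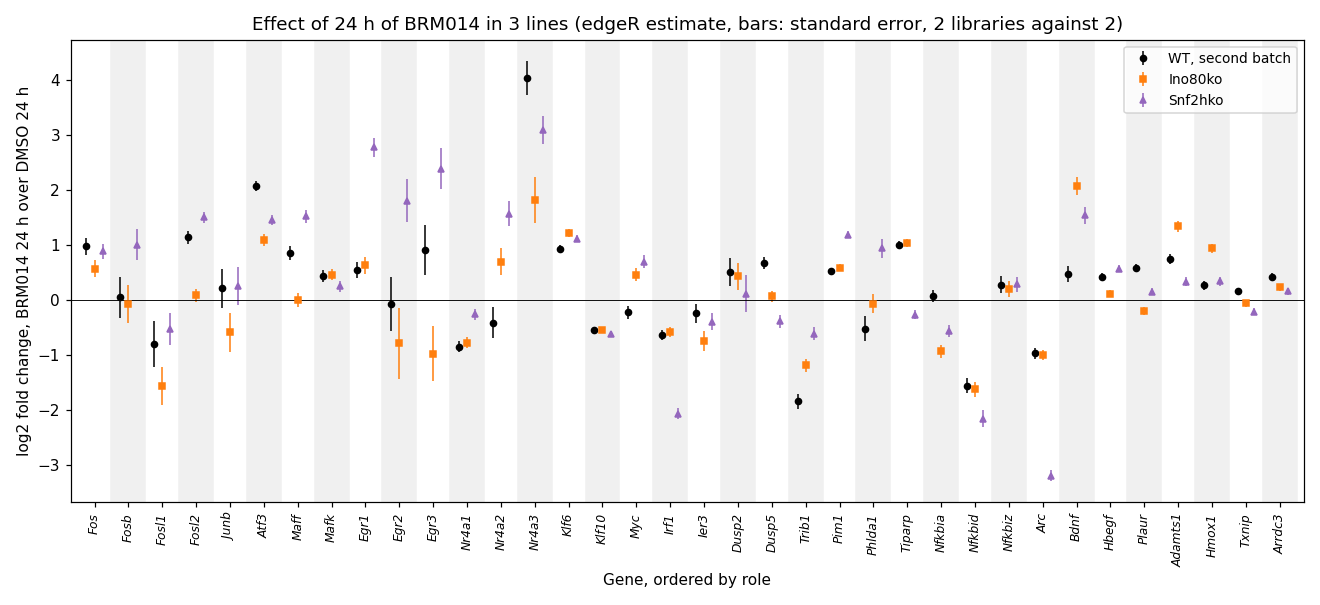
Points give edgeR's log2 fold change of BRM014 24 h over DMSO 24 h for each of the 36 members in WT of the second batch (circles), Ino80ko (squares) and Snf2hko (triangles), and bars the standard error. Arc and Irf1 had lower values in Snf2hko (-3.20 and -2.07) than in the other lines, and Egr1 had a higher one (2.77).

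BRM014 for 24 h moved members in both knockout lines: 14 were higher and 10 lower in Ino80ko (44.5% of all genes called) and 20 higher and 11 lower in Snf2hko (56.9%). Each line had its own DMSO. Of the 33 members called in at least 1 of the 3 lines of the second batch, 18 were called in all 3, 11 of them higher in all, 6 lower in all and 1, Tiparp, in different directions. These 18 were 54.5% of the 33; over all genes, 3038 of the 9877 called in at least 1 line (30.8%) were called in all 3, 90% of them in the same direction. Fos, Atf3, Mafk, Egr1, Nr4a3, Klf6, Pim1, Bdnf, Adamts1, Hmox1 and Arrdc3 rose in all 3 lines, and Nr4a1, Klf10, Irf1, Trib1, Nfkbid and Arc fell in all 3. In Ino80ko the largest rises were in Bdnf (2.07 ± 0.17), from 1.85 and 1.83 CPM to 7.48 and 8.04 CPM, and Nr4a3 (1.81), and the largest named falls in Nfkbid (-1.63) and Trib1 (-1.19). In Snf2hko, Nr4a3 rose by 3.09, Egr1 by 2.77 ± 0.17 from 2.46 and 2.63 CPM to 20.2 and 14.6 CPM, Nr4a2 by 1.56 and Maff by 1.52. There Arc fell by 3.20 ± 0.10, from 51.2 and 52.9 CPM to 5.13 and 6.13 CPM (adjusted p = 1.726e-14), Nfkbid by 2.16 and Irf1 by 2.07, from 24.9 and 24.3 CPM to 5.38 and 6.24 CPM.

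The test of the difference in drug effect called 13 members between Ino80ko and WT, 5 higher and 8 lower (9.03% of all genes called), and 21 between Snf2hko and WT, 10 higher and 11 lower (32.6%). In Ino80ko the effect was larger on Bdnf by 1.6 ± 0.22 (adjusted p = 1.111e-04). Mean Bdnf with BRM014 was 7.76 CPM in Ino80ko and 8.32 CPM in WT of the second batch, and with DMSO 1.84 and 5.99 CPM. The lines thus differed more in Bdnf with DMSO than with BRM014. The effect was smaller on Atf3 (-0.98 ± 0.14), which rose by 1.09 in Ino80ko and by 2.06 in WT of the second batch. Fosl2 differed by -1.05 ± 0.16: it rose by 1.13 in WT and was at 0.08 in Ino80ko (adjusted p = 0.617). Nfkbia differed by -1.0 ± 0.16: it fell by 0.94 in Ino80ko and was at 0.07 in WT (adjusted p = 0.662). Calls of Myc, Trib1, Adamts1 and Nr4a3 in this test were lost when single libraries were left out. In Snf2hko the difference was 2.23 ± 0.22 for Egr1 (adjusted p = 5.448e-07), 1.98 for Nr4a2 and 1.46 for Phlda1. It was -2.22 ± 0.14 for Arc (adjusted p = 2.731e-09), -1.43 ± 0.13 for Irf1 and -1.27 ± 0.11 for Tiparp. Tiparp rose with BRM014 in WT, from 134 and 149 CPM to 273 and 293 CPM, and fell in Snf2hko, from 122 and 109 CPM to 92.1 and 99.1 CPM. With BRM014, Egr1 stood at 16.7 and 16.6 CPM in WT beside 20.2 and 14.6 CPM in Snf2hko, so the treated libraries of the lines overlapped where those with DMSO did not. The NF-kB subunit gene Rel was 1.72 ± 0.16 higher in Snf2hko than in WT with DMSO (adjusted p = 2.049e-08) and 0.93 higher in Ino80ko. The primitive endoderm markers summed to 138 to 144 CPM in WT with DMSO, 66.1 to 71.6 CPM in Ino80ko, 656 to 677 CPM in Snf2hko and 998 to 1156 CPM in Snf2hko with BRM014, with Pdgfra at 0 throughout; their part in the line differences was not tested.

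Across the 29 comparisons, Atf3 was called in 21, Hbegf in 20, Arc and Adamts1 in 19, and Trib1 and Irf1 in 18. At the other end, Junb was called in none. Nfkbiz, an NF-kB cofactor, and Dusp2, a nuclear phosphatase, were called in 1 each, both between Snf2hko and WT with DMSO. Egr3, at 0.749 and 0.745 CPM at 6 h of washout and 0.0907 and 0.156 CPM with DMSO 24 h, was called in 5 comparisons, and Egr2 in 7. The comparisons share libraries and are not independent of each other. These counts per gene are not set beside those of all genes, so they do not rank members against other genes.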

How the data were processed

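RNA was sequenced from 38 samples (17 groups over 2 batches) with a stranded total RNA kit, per the labels' protocols. The authors deposited whole-number counts per gene with an exonic width (a score in bases, used for levels per kilobase). Reads were handled with bcl2fastq 2.17 and STAR on GRCm38/mm10, per the submitters' processing notes; the sources used here do not give the counting program or its strand setting. Every column of the table mapped to a sample. Levels are CPM with TMM scaling over the 38 libraries.

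Tests used edgeR 4.0.16 (R 4.3.3): TMM, filterByExpr (minimum count 10) by group within a batch, quasi-likelihood F-tests (robust), with p adjusted by Benjamini-Hochberg across the genes tested, called at an adjusted p under 0.05. The first batch was fitted on 26 libraries (12517 genes, 13 residual degrees of freedom), the second on 12 (13130 genes, 6), and the WT 24 h effect on 8 with a batch term (11787 genes, 5). No group pair held identical libraries. The procedure was tested on simulated data.

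Members and lists were chosen with earlier results of these data known, and lists are given by counts and medians only. Full values are given for up to 10 called members by smallest adjusted p in the early comparisons, and elsewhere for up to 5 in each direction by fold change with a mean log2 CPM of at least 0. Alternatives were DESeq2 1.42.0, its size factors, no filter, a replicate block, fits of the compared groups alone, other DMSO references and leaving out each replicate.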

Additional observations from a re-analysis of the deposited data

Results flagged for a closer look

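Some 72 groups of 4 libraries (36 members with DMSO or BRM014 for 24 h in WT, both batches) were searched for a library far from the others, and 3 stood out. Chance alone gives about 1 in 20 such groups, so 3 of 72 is no more than chance would give. The 4 libraries of a group also come from 2 batches. Fos with BRM014 was at 8.99 CPM in replicate 2 and at 7.04 to 7.17 CPM in the others. Junb with BRM014 was at 25.2 CPM in replicate 4 and at 56.8 to 62.9 CPM in the others. Dusp2 with DMSO was at 2.44 CPM in replicate 2 and at 1.63 to 1.75 CPM in the others.

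The effect of 24 h of BRM014 differed between groups, by edgeR's test of the difference itself, for these members, each given as a difference in log2 fold change. Between the batches of WT (second minus first) it was 0.70 for Atf3, 0.54 for Hbegf, -0.70 for Myc and -0.55 for Pim1. Between Ino80ko and WT it was 1.6 for Bdnf, 0.68 for Myc, 0.67 for Hmox1, 0.66 for Trib1 and 0.59 for Adamts1. It was -2.22 for Nr4a3, -1.05 for Fosl2, -1.0 for Nfkbia, -0.98 for Atf3 and -0.85 for Maff in the same test. Between Snf2hko and WT it was 2.23 for Egr1, 1.98 for Nr4a2, 1.46 for Phlda1, 1.23 for Trib1 and 1.06 for Bdnf. Lower there were Arc at -2.22, Irf1 at -1.43, Tiparp at -1.27, Dusp5 at -1.06 and Nfkbia at -0.63.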

How the results depend on the processing

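Counts of members called are compared here with the main ones. DESeq2's size factors moved none of the 29 counts by more than 1.5 times and kept all 239 named calls. With only the compared groups fitted, which leaves few residual degrees of freedom, the count was 4 in place of 0 at 30 min, 5 in place of 10 for BRM014 against the analog at 1 h, 6 in place of 11 for the analog at 24 h, 5 in place of 11 between the DMSO times, 5 in place of 13 for the 30 min washout against DMSO 1 h and 5 in place of 12 for the 24 h washout against DMSO 24 h. Against the mean DMSO, which takes in the DMSO 24 h libraries, the 30 min count was 10. The difference between batches had 7 members called without a filter and 8 with DESeq2, in place of 4. The cause of these moves was not tested.

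Leaving out each replicate gave 2 to 5 members at 1 h of BRM014, 2 to 3 for the analog at 1 h, 0 to 5 between the compounds at 1 h, 3 to 5 from 30 min to 1 h, 8 to 11 from 1 h to 3 h and 7 to 10 from 3 h to 6 h. It gave 7 to 9 for the analog at 24 h, 6 to 9 between the DMSO times, 10 to 14 for the 1 h washout against BRM014, 2 to 6 between the short washouts, 5 to 14 for the 30 min washout against DMSO 1 h, 7 to 10 for the 24 h washout against DMSO 24 h and 1 to 9 between batches. Of 239 named calls, 64 were lost in at least 1 such fit, and 0 reversed.

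Samples with the same replicate number showed no common direction of deviation over the first batch as a whole (median correlation -0.0049 over 78 pairs of groups). Single pairs ran from -0.528 to 0.628, with 27 over 0.1, so some pairs of groups did deviate together. Between DMSO and BRM014 in the second batch the correlation was 0.0152 in WT, 0.130 in Ino80ko and 0.237 in Snf2hko. The labels give no shared source. With a replicate block, 26 of 26 counts stayed within 1.5 times and 215 of 215 named calls were kept; 11 members were called between the compounds at 1 h. No paired analysis was possible for the difference between batches and the lines with DMSO because those groups share no numbered source within 1 line. Egr2, Egr3 and Fosb rest on few counts, which limits their precision.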
